A study of Mus musculus with 18 samples.

Results

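Bile acid handling was followed through 10 genes, chosen by symbol from the 24062 symbols of the count table: the uptake transporters Slc10a1 and Slc10a2, the exporters Abcb11, Abcc2, Abcc3 and Slc51b, the nuclear receptors Nr1h4 and Nr0b2, and the synthesis enzymes Cyp7a1 and Cyp8b1. All 10 were found. RNA came from whole liver, kidney and lung of C57BL/6 mice killed at 4 months of age. CCNE-TA mice carry a tetracycline-inducible Ccne1 transgene (cyclin E1) together with the rtTA activator, and the controls, TA mice, carry rtTA alone. Both genotypes had doxycycline from 3 weeks of age, so activator and drug are common to all groups. The labels do not name the promoter that drives rtTA, so the cells that express the transgene in each organ are not known from them. There were 3 libraries in each of 6 groups (3 tissues by 2 genotypes). Nothing in the labels says whether the libraries of a group came from separate animals, so p-values measure the spread between these samples. In whole tissue, fewer cells of a type and less RNA per cell cannot be told apart.

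Bile acids are made from cholesterol in hepatocytes, where Cyp7a1 catalyses the rate-limiting first step of the classical pathway and Cyp8b1 adds the hydroxyl group that directs synthesis to cholic acid. Hepatocytes take bile acids back from portal blood through Slc10a1 (NTCP) and secrete them into bile through Abcb11 (BSEP), while ileal and kidney tubule cells recover them through Slc10a2 (ASBT) and pass them on through the paired subunits Slc51a and Slc51b (OSTα and OSTβ). Bile acids activate the nuclear receptor FXR (Nr1h4), which binds DNA with RXRα, induces Nr0b2 (SHP) and Abcb11, and through SHP represses Cyp7a1 and Cyp8b1.

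The start regions of 2 FXR target genes with unlike liver results are shown: Nr0b2, which was higher in CCNE-TA liver, and Abcb11, which did not pass the test. Whether these regions bear on the liver results was not tested. They are the 250 bases before each gene's start in RefSeq (GRCm38.p6), at chr2:69342617-69342866 on the minus strand for Abcb11 and chr4:133553126-133553375 on the plus strand for Nr0b2, written 5′ to 3′.
Abcb11: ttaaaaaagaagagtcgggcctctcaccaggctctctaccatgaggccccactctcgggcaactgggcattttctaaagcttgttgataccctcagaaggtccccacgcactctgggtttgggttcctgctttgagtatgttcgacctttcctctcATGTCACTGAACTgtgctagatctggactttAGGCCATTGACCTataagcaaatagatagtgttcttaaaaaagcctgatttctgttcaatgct
Nr0b2: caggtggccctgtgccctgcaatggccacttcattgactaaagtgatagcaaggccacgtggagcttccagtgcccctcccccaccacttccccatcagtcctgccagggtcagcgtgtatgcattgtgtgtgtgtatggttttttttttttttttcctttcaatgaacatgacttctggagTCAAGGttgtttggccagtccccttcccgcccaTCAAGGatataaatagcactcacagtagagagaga
Capitals in Abcb11 mark matches to AGGTCANTGACCT, the inverted repeat of the half-site AGGTCA that FXR with RXRα is known to bind. Its AGGCCATTGACCT, from 63 to 51 bases before the start, has 1 mismatch, and a match this close was found in 26 of 32851 windows of the same length (0.0791%), searched on both strands. ATGTCACTGAACT, from 94 to 82 bases before the start, has 2 mismatches, and 315 windows (0.959%) hold a match with at most 2. In Nr0b2 the capitals mark TCAAGG, the core of the element bound by Nr5a2 (LRH-1), at 68 to 63 and 35 to 30 bases before the start; 12.5% of windows hold TCAAGG. RefSeq gave 9 windows for 8 of the 10 genes, as Slc10a1 had more than 1 start, and none for Abcc3 and Cyp7a1. Within the 250 bases of these 9 windows the inverted repeat with at most 2 mismatches was found in Abcb11 alone. Bases farther from the starts, that of Nr0b2 included, were not searched, so an element there would have been missed. The half-site AGGTCA, whose first letters can overlap the end of TCAAGG and which is part of the inverted repeat, was found in Abcb11, Slc51b, Nr1h4, Slc10a1 and Abcc2 and in 14% of all windows. The Slc10a1 match lay in the window at chr12:80968080-80968329 and not in the one at chr12:80968706-80968955. That window and the Nr1h4 window (chr10:89506659-89506908) lie before starts inside the gene spans given below.

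Total counts were 26214869 to 61954486 in liver, 20352770 to 43202066 in kidney and 41597623 to 155323865 in lung libraries. Ccne1, the targeted gene, did not overlap between genotypes in any tissue: it stood at 2.05 to 2.82 CPM (counts scaled to a library total by edgeR's cpm function) in TA and 210 to 353 CPM in CCNE-TA liver, 1.57 to 2.58 and 485 to 897 CPM in kidney, and 1.04 to 6.02 and 65.7 to 125 CPM in lung. Xist, the RNA of the inactive X chromosome of females, separated libraries within groups: it was under 100 CPM in liver TA 2, TA 3 and CCNE-TA 3 and in number 3 of both genotypes in kidney and lung, and above 400 CPM elsewhere. The labels give no sex. The labelled tissues held their markers: 8 hepatocyte markers summed to 95005 to 173986 CPM in livers, 8 proximal tubule markers to 17063 to 73814 CPM in kidneys and 8 lung epithelial markers to 49469 to 129058 CPM in lungs. RNA of other organs was also seen. Kap, an androgen-regulated kidney tubule transcript, ranged from 13.1 to 25.6 CPM in CCNE-TA livers, was 13.8 CPM in liver TA 1 and had 0 reads in the other two TA livers. Lung TA 3 held the most albumin RNA of the lungs (1402 CPM, against 16.9 to 418 CPM in the other 5).

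Levels between genes are compared in CPM per kilobase of exon, scaled over all 18 libraries, as mean ± SD of 3 TA libraries. In TA liver Slc10a1 led at 500 ± 90.1, and its libraries lay above those of Abcb11 (190 ± 31.8). Cyp8b1 (162 ± 95.6), Nr1h4 (97.3 ± 22), Abcc3 (83.2 ± 17.1), Abcc2 (82.8 ± 14.5) and Cyp7a1 (63.2 ± 39.4) followed with overlapping ranges, each with the next. Nr0b2 (30.2 ± 5.20), whose range overlapped that of Cyp7a1, lay above Slc10a2 (7.33 ± 1.53), and Slc51b was last at 0.193 ± 0.133. Kidney had another order. Slc51b came first at 61.1 ± 17.6, with an overlapping range for Nr1h4 (44.3 ± 9.16), then Abcc3 (13.1 ± 10.8) and Abcc2 (8.05 ± 3.56). Nr0b2 (2.53 ± 0.301) and Slc10a2 (2.49 ± 0.956) overlapped each other below the Abcc2 libraries. The Abcc3 libraries ran from 0.800 to 21.2, across the levels of both. The last 4 kidney genes, Slc10a1, Abcb11, Cyp8b1 and Cyp7a1, stood at 0.490 or less. In TA lung Abcc3 (8.31 ± 1.55) stood apart above Cyp8b1 (3.09 ± 3.20), and the remaining 8 had means of 0.0377 to 2.10.

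**Figure D1:**
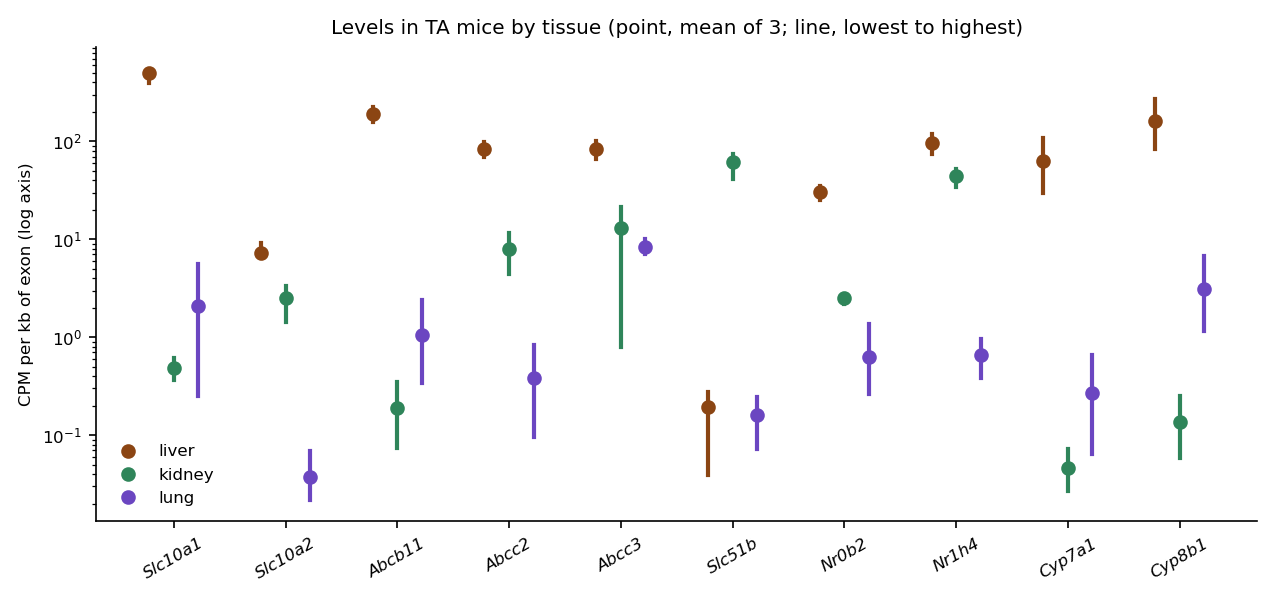
CPM per kilobase of exon (log axis) of each gene in TA liver, kidney and lung; points are means of 3 libraries and lines run from the lowest to the highest library. Liver is highest for every gene but Slc51b, which is highest in kidney, and the long kidney line of Abcc3 spans 0.800 to 21.2.

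Liver held the highest level of 9 of the 10 genes, with no overlap with the next tissue. Its mean exceeded that of the next tissue by 2.19-fold for Nr1h4 and 2.95-fold for Slc10a2, and by 10.3-fold for Abcc2 and 11.9-fold for Nr0b2, all with kidney next. Lung came next for Slc10a1, Abcb11, Cyp7a1 and Cyp8b1, where the TA lung mean rests largely on TA 3, so no fold is given for them. Slc51b was the other case, 316-fold higher in kidney than in liver, where the TA counts were only 1, 4 and 4 reads.

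In liver, CCNE-TA mice had less RNA of Slc10a1, Slc10a2, the canalicular exporter Abcc2 and Cyp8b1, and more of Nr0b2 and Slc51b. These differences depended on the processing to unlike degrees. Over 17 other choices the edgeR, DESeq2 or limma-voom adjusted p was under 0.05 in 15 for Abcc2, 13 for Slc10a1 and 10 for Cyp8b1. It was under 0.05 in 8 for Nr0b2, 7 for Slc10a2 and 6 of 16 for Slc51b. Of the 10 genes, 2 rose and 4 fell at an adjusted p under 0.05 (edgeR quasi-likelihood test, Benjamini-Hochberg adjustment over all genes tested). Over all 13811 genes tested in liver, 28.5% passed in either direction, 13.7% as higher and 14.8% as lower. The groups did not overlap for 8 genes, 2 higher and 6 lower in CCNE-TA, against 47.9% of all genes (23.2% higher and 24.7% lower). The median log2 fold change of the 10 was -0.81 and that of all genes 0.02. Fold changes are CCNE-TA minus TA on the log2 scale, with the standard error (SE), and CPM values below are scaled within a tissue.

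**Figure D2:**
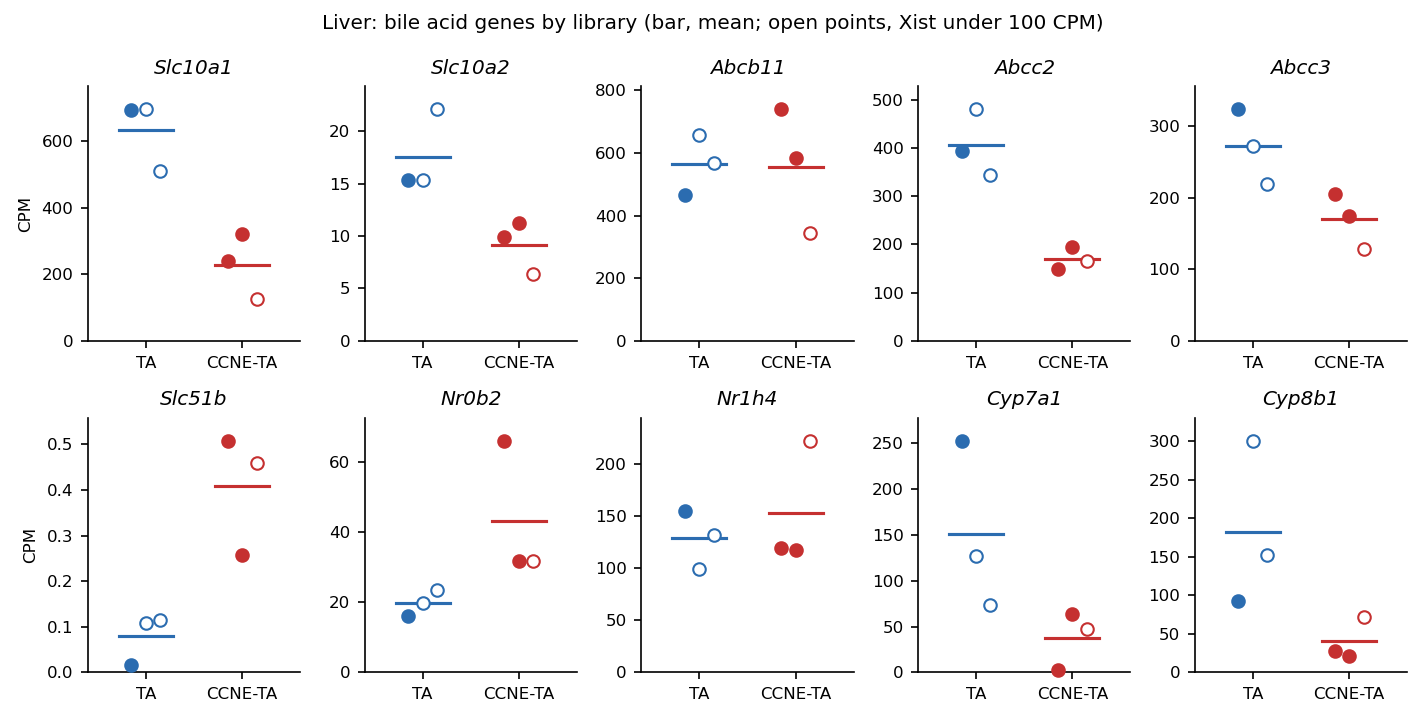
CPM of each gene in the 3 TA (blue) and 3 CCNE-TA (red) liver libraries on linear axes from 0; bars are means and open points are libraries with Xist under 100 CPM. The genotypes overlap for Abcb11 and Nr1h4 and are separate for the other 8 genes, Slc51b at under 1 CPM throughout.

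Slc10a1, the sodium-dependent carrier that brings conjugated bile acids from portal blood into hepatocytes (chromosome 12, 80953183 to 80968705, minus strand of mm10), stood at 692, 695 and 509 CPM in TA 1 to 3 and 239, 320 and 127 CPM in CCNE-TA 1 to 3. The lowest TA library was above the highest CCNE-TA library. It fell by 1.46 ± 0.35 (log2, SE, n = 3 per group; edgeR adjusted p = 0.0185), from 632 ± 106 to 229 ± 96.7 CPM (SD). Slc10a1 counted 6.52 to 7.26 reads per 1000 reads of albumin, the major hepatocyte transcript, in TA livers and 1.81 to 2.81 in CCNE-TA livers. That ratio depends on the marker chosen. Albumin had a log2 fold change of 0.21 ± 0.37, but Cps1, another hepatocyte marker, fell by 1.45 ± 0.42 (edgeR adjusted p = 0.034), about as much as Slc10a1. Of the 8 hepatocyte markers, 4 had positive and 4 negative fold changes in liver. Slc10a2, the carrier of ileum, kidney tubule and bile duct cells (chromosome 8, 5083219 to 5105351, minus strand), stood at 15.3, 15.3 and 22.1 CPM in TA and 9.93, 11.2 and 6.38 CPM in CCNE-TA livers, again without overlap, and fell by 0.94 ± 0.26 (adjusted p = 0.0313). Over 17 other processing choices the adjusted p of Slc10a1 ran from 0.000238 to 0.167 and passed in 13, failing without TA 2 (0.0596) or CCNE-TA 1 (0.0705). That of Slc10a2 ran from 0.0103 to 0.264 and passed in 7, failing without any 1 of TA 1 (0.0514), TA 2 (0.0609), TA 3 (0.117), CCNE-TA 1 (0.0857) or CCNE-TA 3 (0.0542), and once Xist was a covariate (0.0559).

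Of the 2 exporters of the canalicular membrane, 1 passed the test. Abcc2 (MRP2), which moves bilirubin glucuronides and other conjugates into bile (chromosome 19, 43782192 to 43840740, plus strand), stood at 394, 480 and 344 CPM in TA and 149, 194 and 166 CPM in CCNE-TA livers. Every CCNE-TA library was below every TA library, and the means were 406 ± 68.9 and 170 ± 22.8 CPM. It fell by 1.26 ± 0.23 (adjusted p = 0.00863), and this held without any single library and in 15 of 17 other processing choices (adjusted p from 1.19e-06 to 0.196). Abcb11, the bile salt export pump (chromosome 2, 69238282 to 69342616, minus strand; 3.01% of its exon bases lie in the antisense genes Gm13613 and Gm13614), stood at 466, 659 and 568 CPM in TA and 740, 584 and 345 CPM in CCNE-TA livers. The groups overlapped on both sides, with means of 564 ± 96.7 and 557 ± 199 CPM, a log2 fold change of -0.02 ± 0.32 and an adjusted p of 0.967. Its fold change was above 0 with upper quartile scaling (0.17). The ratio of Abcb11 to Slc10a1 reads was 0.674 to 1.12 in TA and 1.83 to 3.09 in CCNE-TA livers, with no overlap.

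At the blood-facing membrane, Abcc3 (MRP3), which returns bile acid and bilirubin conjugates to blood (chromosome 11, 94343295 to 94392997, minus strand), stood at 324, 273 and 220 CPM in TA and 206, 175 and 129 CPM in CCNE-TA livers. The ranges lay close but did not overlap. Its log2 fold change was -0.68 ± 0.25, with an adjusted p of 0.0744. With Xist as a covariate it was 0.0364 and with DESeq2, which called 36.0% of all genes, 0.0337, within a range of 0.0337 to 0.507 over 17 other choices.

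Slc51b, the β subunit of the organic solute transporter (chromosome 9, 65412714 to 65422955, minus strand; 12.8% of its exon bases lie in Rasl12 on the other strand), was near the detection limit in liver. TA 1 to 3 held 1, 4 and 4 reads and CCNE-TA 1 to 3 held 20, 11 and 15. No libraries overlapped. The pooled counts of 46 against 9 gave a 6.02-fold ratio scaled for depth (95% interval 2.91 to 14, which covers counting error only), and the fitted rise was 2.44 ± 0.76 (adjusted p = 0.0447). Even numbers prevailed among low counts in every library, so reads may not be independent and the interval may be too narrow. That call passed in 6 of 16 other choices (adjusted p from 0.00752 to 0.143) and failed without any 1 of the 6 libraries, leaving 0.124 (TA 1), 0.0976 (TA 2), 0.0992 (TA 3), 0.143 (CCNE-TA 1), 0.0538 (CCNE-TA 2) and 0.0946 (CCNE-TA 3) when the named library was removed. Kidney tubule RNA moved in part with it: Slc34a1, a phosphate carrier of the proximal tubule, stood at 1.81, 0 and 0 CPM in TA and 3.40, 1.36 and 3.96 CPM in CCNE-TA livers. There were 0.116 to 0.190 Slc51b reads per Slc34a1 read in CCNE-TA livers, 0.00877 in liver TA 1 and 0.00282 to 0.0293 in the 6 kidney libraries. Slc51a, the α subunit, had 2, 0 and 0 reads in TA and 4, 2 and 2 in CCNE-TA livers and was too low to be tested.

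Nr1h4, which encodes FXR (chromosome 10, 89454234 to 89533585, minus strand), stood at 155, 99.0 and 132 CPM in TA and 119, 117 and 222 CPM in CCNE-TA livers. CCNE-TA 1 and 2 lay within the TA range and CCNE-TA 3 above it, and the log2 fold change was 0.24 ± 0.30 (adjusted p = 0.569). Without CCNE-TA 3 it was -0.13. Nr0b2, the corepressor SHP that lacks a DNA-binding domain (chromosome 4, 133553376 to 133556536, plus strand), stood at 16.0, 19.7 and 23.4 CPM in TA and 66.1, 31.7 and 31.8 CPM in CCNE-TA livers. All 3 CCNE-TA livers were above all TA livers, CCNE-TA 1 by far the most, with means of 19.7 ± 3.68 and 43.2 ± 19.8 CPM. Nr0b2 rose by 1.13 ± 0.31 (adjusted p = 0.0297). The call passed in 8 of 17 other choices (adjusted p from 0.00576 to 0.269), and the fold change was 0.70 without CCNE-TA 1 (0.0792) and 0.43 with offsets for transcript length and GC content (0.269). It also failed without TA 1 (0.0885), TA 2 (0.0866) or TA 3 (0.0677), and with Xist as a covariate (0.0857).

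The synthesis enzymes were lower and varied widely within groups. Cyp7a1, cholesterol 7α-hydroxylase (chromosome 4, 6265612 to 6275633, minus strand), stood at 253, 127 and 73.1 CPM in TA and 2.34, 64.1 and 47.7 CPM in CCNE-TA livers. The groups did not overlap, but TA 3 and CCNE-TA 2 lay close and CCNE-TA 1 was far below the rest. The log2 fold change was -1.99 ± 1.18 with an adjusted p of 0.258, and in 17 other choices the adjusted p did not go below 0.106. Cyp8b1, sterol 12α-hydroxylase (chromosome 9, 121914356 to 121916305, minus strand, a single exon), stood at 93.4, 301 and 153 CPM in TA and 28.1, 20.8 and 72.3 CPM in CCNE-TA livers, without overlap. Cyp8b1 fell by 2.18 ± 0.60 (adjusted p = 0.0351), from 183 ± 107 to 40.4 ± 27.9 CPM. The call passed in 10 of 17 other choices (adjusted p from 0.000179 to 0.306) and failed without TA 2 (0.0750), TA 3 (0.0679), CCNE-TA 1 (0.107) or CCNE-TA 2 (0.0758). The 2 enzymes did not vary in parallel: Cyp7a1 was highest in TA 1, where Cyp8b1 was lowest among TA livers, and the Cyp8b1 to Cyp7a1 read ratio ran from 0.324 in CCNE-TA 2 to 12.0 in CCNE-TA 1.

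CCNE-TA 1 combined the highest Nr0b2 (66.1 CPM), the highest Abcb11 (740 CPM) and the lowest Cyp7a1 (2.34 CPM) of the 6 livers. CCNE-TA 3 combined the highest Nr1h4 (222 CPM) with the lowest Slc10a1, Slc10a2, Abcb11 and Abcc3. The log2 ratio of mean CPM was also taken within libraries of high Xist (TA 1 against CCNE-TA 1 and 2) and of low Xist (TA 2 and 3 against CCNE-TA 3), where genes without overlap can differ in size only and not in sign. In that order it was -1.31 and -2.24 for Slc10a1, -0.53 and -1.55 for Slc10a2, -1.20 and -1.31 for Abcc2, 1.61 and 0.56 for Nr0b2, and -1.93 and -1.65 for Cyp8b1. Abcb11 (0.51 and -0.83) and Nr1h4 (-0.40 and 0.94) had opposite signs in these small sets, a difference that was not tested.

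**Figure D3:**
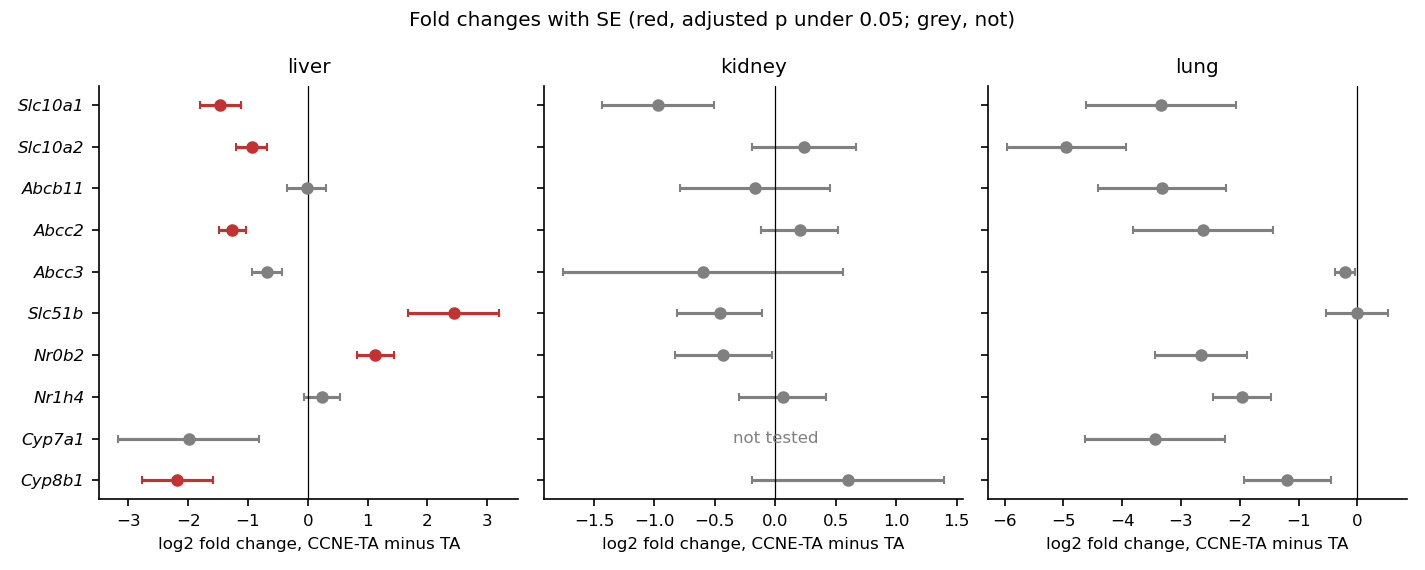
Log2 fold change of CCNE-TA minus TA with SE for each gene in liver, kidney and lung (n = 3 per group; each panel has its own axis); red marks an adjusted p under 0.05. Liver has 6 red genes, kidney and lung none, and the lung points for Slc10a1, Slc10a2, Abcb11 and Cyp7a1 lie below -3 with wide bars.

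Markers of other cell types moved with genotype in liver. Of 8 bile duct markers 6 rose (75%, against 13.7% of all genes). Their summed level went from 59.4 to 62.7 CPM in TA to 254 to 355 CPM in CCNE-TA. Of 8 endothelial markers 5 fell (62.5%, against 14.8% of all genes), with sums of 132 to 168 against 66.5 to 85.1 CPM. Of 8 hepatocyte markers 1 fell, Cps1 (12.5%, near the 14.8% of all genes), and DESeq2, which called 36.0% of all genes, called Apob and Cps1. The hepatocyte sum, mostly albumin (70108 to 106120 CPM in TA and 70560 to 131254 CPM in CCNE-TA), overlapped (100403 to 138393 against 95005 to 173986 CPM). The 8 proximal tubule markers summed to 17.5, 0.513 and 0.569 CPM in TA 1 to 3 and 16.2 to 32.5 CPM in CCNE-TA. The 8 pancreas markers summed to 22.7 to 201 and 9.14 to 14.3 CPM, and the 8 enterocyte markers to 125 to 563 and 272 to 740 CPM. Much of the enterocyte sum was Apoa4, at 512, 88.6 and 105 CPM in TA and 227, 660 and 222 CPM in CCNE-TA. Sis and Cdx2 were at 0 in all 6. Of 4 tested enterocyte markers Lgals4 (log2 fold change 2.98, adjusted p = 0.0266) and Vil1 rose (50%), and all 4 fold changes were positive. Of 6 tested lung epithelial markers Ager and Foxj1 rose (33.3%). Fabp6 was too low to be tested. The part of these cell types in the liver results, Slc10a2 and Slc51b included, was not tested beyond the read ratios given.

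A further 67 bile acid genes fall into 4 lists. Among 18 tested regulators in liver, 7 fell (38.9%, against 14.8% of all genes) and 0 rose, with a median log2 fold change of -0.32. Prox1, a hepatocyte corepressor, stood at 103, 50.9 and 104 CPM in TA and 16.4, 24.7 and 20.7 CPM in CCNE-TA, a fall of 2.06 ± 0.30 (adjusted p = 0.00477). Nr5a2, the LRH-1 receptor that activates Cyp7a1, Cyp8b1 and Nr0b2, stood at 38, 52.3 and 45.1 against 16.1, 18.5 and 13.1 CPM, a fall of 1.5 ± 0.20 (adjusted p = 0.00349). Neither gene's groups overlapped. Klb, the coreceptor for the ileal hormone FGF15, fell by 1.90 ± 0.30 (adjusted p = 0.00549), from 32.0 ± 8.19 to 8.55 ± 2.77 CPM, while its partner receptor Fgfr4 stood at 47.9 ± 5.86 and 46.7 ± 9.43 CPM (log2 fold change -0.04 ± 0.20, adjusted p = 0.899). Rxra, the DNA-binding partner of FXR, stood at 557 to 588 CPM in TA and 206 to 252 CPM in CCNE-TA and fell by 1.35 ± 0.21 (adjusted p = 0.00567). The other 3 that fell were Hnf4a, Ppara and Onecut1. Fgf15 itself was at 0 in all 6 livers. Fgfr4, Fgf15, Cyp7b1, Slco1a1, Hnf4a, Ppara and Onecut1 are named here after their values were seen.

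Of 14 tested transport genes 3 fell (21.4%) and 0 rose in liver (median 0.03), a share near the 14.8% of all genes. Slco1b2, the sodium-independent organic anion carrier of hepatocytes, stood at 1172, 1725 and 1270 CPM in TA and 406, 513 and 392 CPM in CCNE-TA and fell by 1.67 ± 0.27 (adjusted p = 0.00597). Atp8b1, the phospholipid flippase FIC1, fell by 0.96 ± 0.18 (adjusted p = 0.00909), and its partner subunit Tmem30a by 0.70 ± 0.19 (adjusted p = 0.0279). Slco1a1, another carrier of that family, stood at 97.9, 709 and 270 against 14.5, 24.3 and 115 CPM, groups that overlapped (adjusted p = 0.108), and DESeq2 called it. Of 16 tested synthesis genes 2 fell (12.5%, below the share of all genes) and 0 rose (median -0.50): Abcd3, a peroxisomal carrier of bile acid precursors (fall of 1.0 ± 0.26, adjusted p = 0.0234), and Slc27a5, the bile acid CoA ligase (fall of 1.11 ± 0.35, adjusted p = 0.0435). Cyp7b1 of the alternative pathway had a log2 fold change of -2.0 ± 0.78 and did not pass (adjusted p = 0.103). Of 13 other FXR targets Apoc2, a cofactor of lipoprotein lipase, rose by 1.43 ± 0.23 (adjusted p = 0.00582; 124 to 148 against 314 to 451 CPM) and Pltp, the phospholipid transfer protein, fell by 0.95 ± 0.25 (adjusted p = 0.0246), with a list median of 0.18. The 2 of 13 are a smaller share than the 28.5% of all genes that passed.

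Prox1 passed under every one of 17 other choices (adjusted p at most 0.0345). Nr5a2, Klb, Rxra, Apoc2 and Atp8b1 failed only with a term for liver TA 2 and TA 3, the TA livers without Kap. That fit leaves TA 1 as the only control and takes the spread from the other 5 libraries. The adjusted p was then 0.0529 for Klb (log2 fold change -1.95), 0.0603 for Nr5a2 (-1.26), 0.0686 for Atp8b1 (-1.11), 0.0699 for Rxra (-1.33) and 0.0914 for Apoc2 (1.41). Slco1b2 failed with that term (0.0852) and in 1 fit of all 18 libraries (0.0775). Abcd3 and Pltp lost the call without any 1 of TA 1 (0.0616 and 0.0738), TA 2 (0.0581 and 0.0514), TA 3 (0.0699 and 0.0661) and CCNE-TA 1 (0.0951 and 0.0601), and Tmem30a without the same 4 (0.0693, 0.0907, 0.0740 and 0.115). Slc27a5 lost it without those 4 (0.0613, 0.114, 0.126 and 0.0781) or CCNE-TA 2 (0.0537), and with Xist as a covariate (0.0711).

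**Figure D4:**
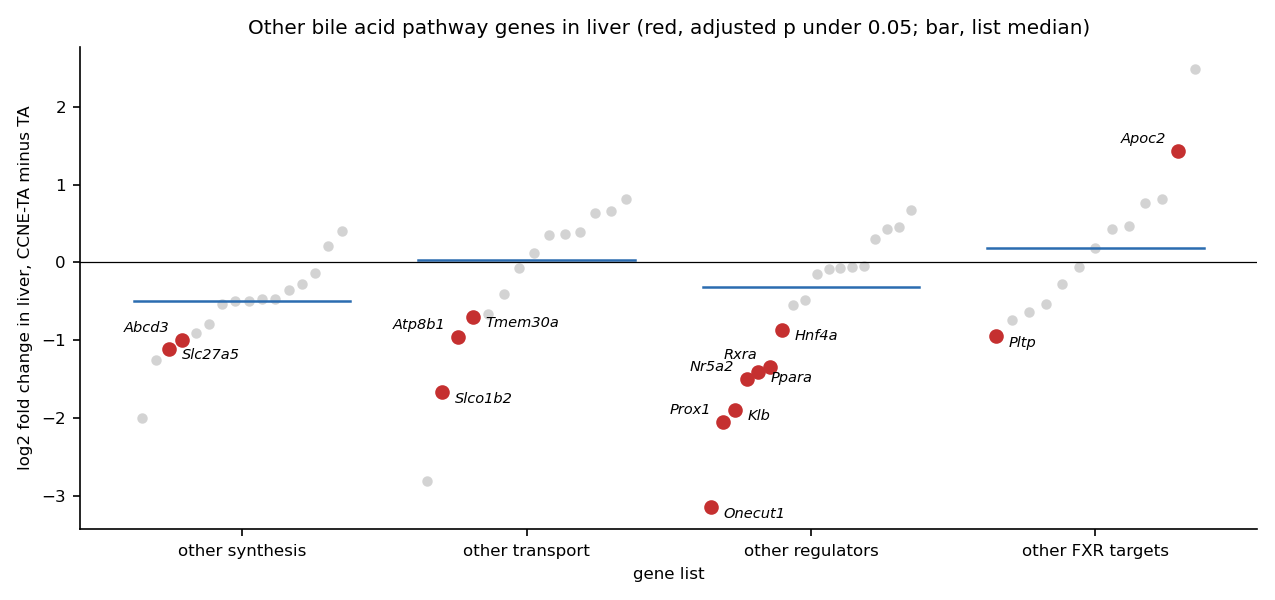
Log2 fold change in liver (CCNE-TA minus TA) of the tested genes of 4 lists, ordered within each list; red points passed an adjusted p of 0.05 and are named, and blue bars are list medians. Of the 14 red points, Apoc2 alone lies above 0.

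In kidney, where Slc10a2 and Slc51b recover bile acids from the filtrate, none of the 9 genes tested passed (edgeR; Cyp7a1 was too low), 0 had an unadjusted p under 0.05 and DESeq2 also called 0. Over all 15247 genes 0.0131% passed. The median log2 fold change of the 9 was -0.17 and that of all genes 0.00. Slc51b stood at 62.8, 56.6 and 34.6 CPM in TA and 48.0, 45.0 and 19.3 CPM in CCNE-TA, overlapping groups with a log2 fold change of -0.46 ± 0.35. Slc51a stood at 25.2, 49.2 and 100 against 31.5, 73.0 and 163 CPM, and number 3 of each genotype held the most Slc51a and the least Slc51b. Same-numbered kidneys deviated together, a pairing drawn from these data and not from the labels. Between them Slc51b was lower and Slc51a higher in CCNE-TA in all 3 pairs. How many of all genes kept 1 direction in the 3 pairs was not counted. With the number as a block the log2 fold change was -0.52 ± 0.15 for Slc51b (adjusted p = 0.712) and 0.53 ± 0.13 for Slc51a (adjusted p = 0.572). Slc10a2 stood at 16.3, 13.4 and 7.07 against 21.0, 15.8 and 6.69 CPM, lowest in both number 3 libraries (log2 fold change 0.24 ± 0.43). Abcc2 (44.5, 83.1 and 116 against 75.8, 92.0 and 113 CPM) and Nr1h4 (93.6, 128 and 142 against 79.4, 89.0 and 209 CPM) overlapped too, with log2 fold changes of 0.20 ± 0.32 and 0.06 ± 0.36.

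Abcc3 separated the kidneys by Xist rather than by genotype. It stood at 117 and 143 CPM in TA 1 and 2, 66.5 and 93.7 CPM in CCNE-TA 1 and 2, and 5.41 and 14.4 CPM in TA 3 and CCNE-TA 3, the libraries with Xist at 2.73 and 1.54 CPM. Between genotypes its log2 fold change was -0.60 ± 1.16, and with Xist as a covariate 0.21. Slc10a1 was the 1 kidney gene without overlap, at 1.29, 0.940 and 1.61 CPM in TA and 0.548, 0.781 and 0.608 CPM in CCNE-TA (log2 fold change -0.97 ± 0.46, unadjusted p = 0.0636 by edgeR), where 5.72% of all genes did not overlap (2.68% lower). Abcb11 (0.447 to 2.13 and 0.608 to 1.28 CPM), Nr0b2 (2.94 to 3.76 and 1.54 to 3.88 CPM), Cyp8b1 (0.134 to 0.578 and 0.128 to 0.781 CPM) and Cyp7a1 (0.133 to 0.358 and 0.0640 to 0.260 CPM) were low and overlapped. Of the 4 other lists 0 genes passed in kidney with edgeR or DESeq2, and 1 had an unadjusted p under 0.05, against 2.13% of all genes: Ephx1, a microsomal epoxide hydrolase (0.57 ± 0.22, unadjusted p = 0.0304 by edgeR). The others with the lowest p in their lists were Ch25h (1.04 ± 0.47), Slc27a5 (-0.70 ± 0.37), Abcg5 (0.99 ± 0.53), S1pr2 (0.41 ± 0.30), Vdr (-0.25 ± 0.19), Sdc1 (0.34 ± 0.16) and Pdk4 (0.94 ± 0.52), as log2 fold changes with SE.

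Lung showed low levels of most of these genes and no call: 0 of 10 passed with edgeR, where 0.00594% of 16823 genes did, although 6 had an unadjusted p under 0.05, against 3.65% of all genes. DESeq2 called 2, Abcb11 (adjusted p = 0.0294) and Nr1h4 (0.0292), against 1.1% of all genes. Every fold change was negative, with a median of -2.64 against 0.02 for all genes. The groups did not overlap for 5 genes, all lower in CCNE-TA (7.9% of all genes in either direction, 4.59% lower).

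Many of these fold changes moved with TA 3 and with CCNE-TA 1. Slc10a1 stood at 0.812, 1.56 and 18.1 CPM in TA lungs and 1.1, 0.622 and 0.263 CPM in CCNE-TA lungs, a log2 fold change of -3.34 ± 1.28 that was -0.85 without TA 3. Abcb11 stood at 2.57, 3.10 and 18.4 against 1.52, 0.679 and 0.171 CPM (-3.32 ± 1.09, and -1.85 without TA 3). Cyp7a1 stood at 0.387, 0.557 and 4.07 against 0.307, 0.0460 and 0.0789 CPM (-3.45 ± 1.19, and -1.66). Abcc2 had log2 fold changes of -2.62 ± 1.19 with all libraries and -1.29 without TA 3, Nr0b2 -2.66 ± 0.79 and -1.46, and Nr1h4 -1.96 ± 0.49 and -1.57. Cyp8b1 (3.75, 3.29 and 19.6 against 4.12, 4.85 and 2.65 CPM) went from -1.19 ± 0.74 to 0.13. Leaving out CCNE-TA 1 in place of TA 3 moved values the other way, to -3.93 for Slc10a1, -4.22 for Abcb11, -4.70 for Cyp7a1 and -4.40 for Abcc2.

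Hepatocyte RNA varied in the same direction over the lungs. The 8 hepatocyte markers summed to 461, 670 and 2314 CPM in TA and 305, 124 and 53.1 CPM in CCNE-TA, and albumin to 265, 418 and 1402 against 204, 66.2 and 16.9 CPM. All 8 markers were lower in CCNE-TA (median log2 fold change -2.92), 7 with an unadjusted edgeR p under 0.05 and 0 adjusted. DESeq2 called 3, against 1.1% of all genes. Per 1000 albumin reads, Abcb11 counted 7.42 to 13.1 in TA and 7.45 to 10.3 in CCNE-TA lungs, and 4.39 to 8.10 in livers. On that scale Nr1h4 counted 2.36 to 4.91 in TA and 4.00 to 29.6 in CCNE-TA lungs, and 0.905 to 3.15 in livers. Nr0b2 counted 1.05 to 1.74 in TA and 0.862 to 6.23 in CCNE-TA lungs, all above the 0.151 to 0.503 of livers. The part of hepatocyte RNA in the lung results was not tested beyond these ratios.

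**Figure D5:**
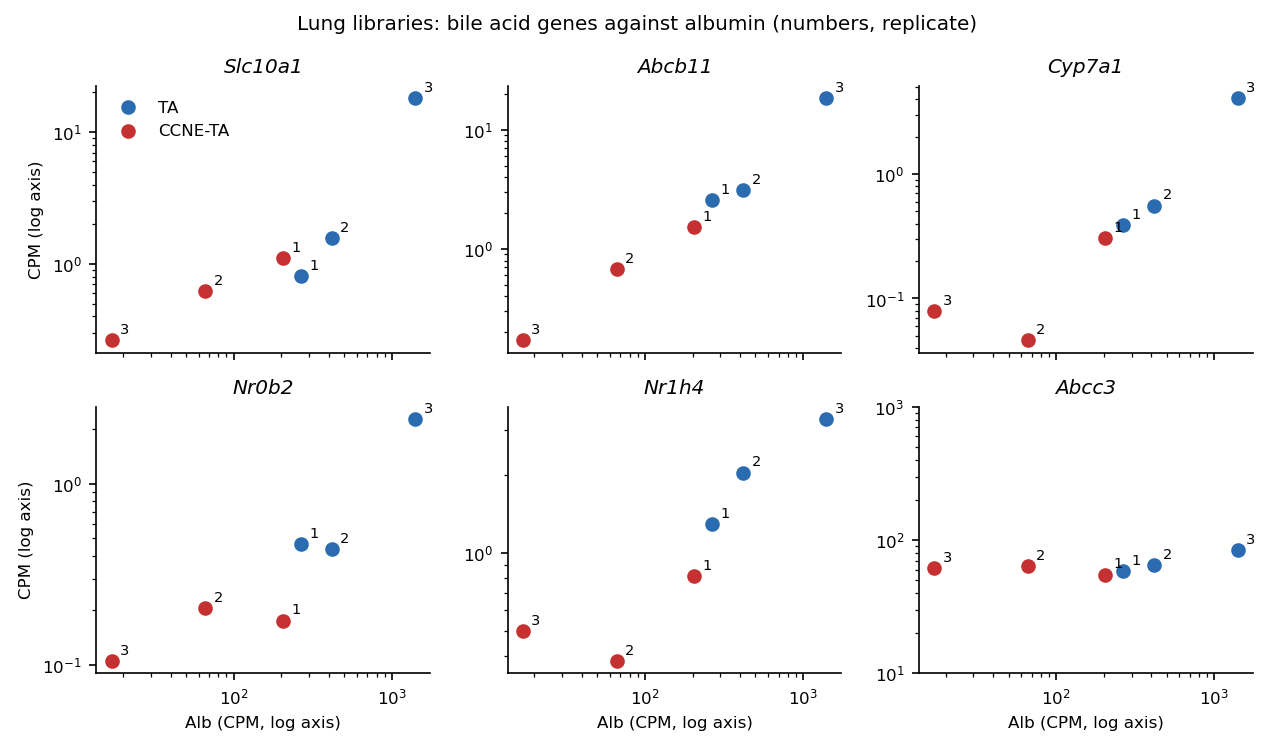
CPM of 6 genes against albumin CPM in the 6 lung libraries (both axes log; TA blue, CCNE-TA red; numbers are replicates). TA 3 is top right and CCNE-TA 3 at the lowest albumin in each panel, Slc10a1 and Abcb11 climb with albumin, and Abcc3 stays between 55.0 and 84.5 CPM.

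Abcc3, which airway and other epithelia also express, was the most abundant of the 10 in lung and overlapped between genotypes, at 58.4, 65.1 and 84.5 against 55.0, 63.4 and 61.7 CPM (-0.21 ± 0.17). Slc51b stood at 0.0749 to 0.252 and 0.158 to 0.173 CPM. Slc10a2 was a trace transcript: TA lungs held 11, 10 and 17 reads and CCNE-TA lungs 2, 0 and 0. The pooled counts of 38 and 2 gave a ratio of 31.3 (95% interval 8.08 to 267, with the same limit). A library at 0 allows up to 3 reads, which is 0.0345 CPM in CCNE-TA 2 and 0.0394 CPM in CCNE-TA 3, below the TA values of 0.133 to 0.420 CPM. Per 1000 albumin reads there were 0.299 to 0.518 Slc10a2 reads in TA lungs, 0.0616, 0 and 0 in CCNE-TA lungs and 0.0756 to 0.315 in livers. Its edgeR adjusted p was 0.9999 within lung and 0.0277 in 1 fit of all 18 libraries, where 0.548% of genes passed.

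In the other 4 lists 0 genes passed in lung with edgeR, although the unadjusted p was under 0.05 for 6 synthesis, 7 transport and 3 regulator genes and 4 FXR targets, of 17, 14, 18 and 13 tested, against 3.65% of all genes. DESeq2 called 4, 3, 0 and 2 of them, against 1.1% of all genes. Fabp1, the liver fatty acid binding protein, stood at 15.5, 25.7 and 77.0 CPM in TA and 7.18, 6.14 and 3.73 CPM in CCNE-TA lungs (-2.79 ± 0.64), and Cyp2c70, which makes muricholic acids in mice, at 3.96, 6.24 and 15.4 against 1.64, 0.771 and 0.368 CPM (-3.19 ± 0.75). The log2 fold changes of the others with the lowest p were -3.56 ± 0.93 for Akr1c6, -1.94 ± 0.58 for Slco1a4, -2.26 ± 0.75 for Nr1i3, -2.68 ± 1.04 for Hnf4a, -3.41 ± 0.88 for Kng1 and -3.27 ± 0.92 for Apoa5.

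The difference of the genotype effect between tissues was tested as an interaction in 1 edgeR fit of all 18 libraries. Between liver and kidney it passed for 1 gene, Slc51b, at 2.96 ± 0.74 (adjusted p = 0.0247), against 9.52% of 17155 genes (4.78% positive). DESeq2 called 2 genes, against 18.7%. For Slc51b the fold change was positive in liver and negative in kidney. The Slc51b call was lost without liver TA 1 (0.0617), liver CCNE-TA 1 (0.0629), liver CCNE-TA 3 (0.0521), kidney TA 1 (0.0590) or kidney CCNE-TA 2 (0.0507), and over 27 other choices the adjusted p ran from 0.00261 to 0.129. Nr0b2 (1.56 ± 0.71, adjusted p = 0.156) and Cyp8b1 (-2.73 ± 1.22, adjusted p = 0.153) did not pass.

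Between liver and lung, 3 genes passed, all positive, against 12.7% of all genes (6.23% positive), and DESeq2 called 5, against 21.5%. Nr0b2 differed by 3.70 ± 0.76 (adjusted p = 0.0103), having risen in liver and stood lower in the CCNE-TA lungs, and it passed in all 27 other choices (adjusted p at most 0.0448). Slc10a2 differed by 3.64 ± 0.96 (adjusted p = 0.0251; 0.0603 without lung CCNE-TA 2; 0.00669 to 0.0818 over the choices) and Nr1h4 by 2.13 ± 0.58 (adjusted p = 0.0289). Nr1h4 lost the call without liver TA 2 (0.0642), TA 3 (0.0554) or CCNE-TA 3 (0.0714), or lung TA 2 (0.0637), TA 3 (0.0513) or CCNE-TA 2 (0.0680), within a range of 0.00336 to 0.148. For Slc10a2 the log2 fold change was negative in both tissues, -0.94 in liver and -4.95 in lung. Abcb11 (3.26 ± 1.04, adjusted p = 0.0513) and Slc51b (2.50 ± 0.82, adjusted p = 0.0559) did not pass. Both differences use the same liver libraries, and those with lung carry the hepatocyte RNA values given above.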

How the data were processed

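The authors deposited raw read counts for each gene symbol, without normalization, in 1 column per library, and 0 columns were unused. Per the submitters' processing notes, TopHat2 2.0.14, Bowtie2 2.2.6 and featureCounts 1.4.6 of Subread were used with mm10. Annotation, strand setting and multi-mapping are not given in the sources used here. Per the labels' protocols, column-extracted RNA (100 to 200 ng) went into TruSeq RNA version 2 libraries, which do not mark strand. Even numbers made up 64.2% to 71.2% of counts from 1 to 20.

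Each tissue was fitted with edgeR 4.0.16 in R 4.3.3 (filterByExpr, TMM, robust quasi-likelihood F test), and tissue differences as interactions over 18 libraries. Adjusted p values are Benjamini-Hochberg over all genes tested, with a threshold of 0.05; those without a named tool are edgeR's. CPM values use TMM factors. Exon lengths and positions come from GENCODE M21 on mm10.

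All 10 genes are named; of each other list up to 4 per tissue that passed, in order of p, or 2 where none passed. The members and lists were chosen with earlier results of these data known. Same-numbered kidney libraries deviated together (correlations of 0.308, 0.486 and 0.340 across genes), so kidney numbers pair the samples by the data and not by the labels. Alternatives were DESeq2 1.42.0, limma-voom (limma 3.58.1), other scalings and filters, a replicate block, Xist as a covariate, length and GC offsets (splines of 4 degrees of freedom), 1 fit of all libraries, a term for liver TA 2 and TA 3, lung without CCNE-TA 1 and TA 3, and each library left out.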

Additional observations from a re-analysis of the deposited data

Results flagged for a closer look

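Genotype effects differed between tissues by the interaction test of edgeR (adjusted p under 0.05 over all genes). The log2 difference of liver minus kidney was 2.96 for Slc51b, from 46 CCNE-TA and 9 TA reads in liver. Liver minus lung was 3.64 for Slc10a2, 3.70 for Nr0b2 and 2.13 for Nr1h4. Slc10a2 fell in liver (log2 fold change -0.94), and its lung value rests on 38 TA and 2 CCNE-TA reads. With edgeR, Nr0b2 rose in liver (1.13) but did not pass in lung, and Nr1h4 passed in neither tissue. Hepatocyte RNA also varied over the lungs, and its part was not tested beyond the read ratios given.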

How the results depend on the processing

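Of the 6 liver calls among the 10 genes, 2 were left with the replicate block, 2 in 1 fit of all 18 libraries, 0 once TA 2 and TA 3 had a term of their own, and 1 to 4 when 1 library was left out. That term leaves TA 1 as the only control, assumed to vary like the other libraries; the log2 fold changes of the 6 were then -1.59 (Slc10a1), -0.74 (Slc10a2), -1.22 (Abcc2), 4.44 (Slc51b), 1.43 (Nr0b2) and -1.21 (Cyp8b1). In lung (0) DESeq2 called 2 and the 18-library fit 1. Liver minus kidney (1) gave 2 with DESeq2, 0 with limma-voom, 0 with length and GC offsets and 0 to 2 without 1 library. Liver minus lung (3) gave 5 with DESeq2, 1 with limma-voom, 5 with upper quartile scaling and 1 to 4 without 1 library. Kidney stayed at 0 throughout. Among the other lists in liver, synthesis (2) gave 4 with DESeq2, 1 with upper quartile scaling, the block or the 18-library fit and 0 to 2 without 1 library, transport (3) 5 with DESeq2, and FXR targets (2) 5 in the 18-library fit and 1 to 3 without 1 library. With the TA 2 and TA 3 term 1 regulator (7) and 0 genes of the other lists passed. The causes were not tested.

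The replicate block in kidney, whose numbers pair the libraries, left 0 of the 10 genes called. In liver same-numbered libraries correlated at 0.200, -0.00177 and 0.0826 and in lung at -0.477, -0.105 and -0.592, so there the samples share only a number.

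No called value reversed. Values of genes not called that changed sign were as follows. Liver Abcb11 was 0.17 with upper quartile scaling, 0.04 with a stricter filter, 0.21 with length and GC offsets and 0.26 with the TA 2 and TA 3 term, and liver Nr1h4 -0.03 with that term. Kidney Abcb11 was 0.02, 0.01 and 0.03 and Nr1h4 -0.07, -0.07 and -0.14 with limma-voom, the replicate block and Xist as a covariate, and kidney Abcc3 0.21 with Xist. Without lung CCNE-TA 1 and TA 3, lung Abcc3 was 0.02, Cyp8b1 0.09 and Slc51b 0.03; Slc51b was also 0.13 with limma-voom and the block, 0.05 with offsets and 0.00 in the 18-library fit. Liver minus kidney Abcb11 was -0.12 with limma-voom and -0.08 with the block, Abcc3 0.08 with upper quartile scaling, and liver minus lung Cyp7a1 -0.03 with limma-voom. Leaving out 1 library gave ranges across 0 for liver Abcb11 (-0.26 to 0.23) and Nr1h4 (-0.13 to 0.40), kidney Slc10a2 (-0.12 to 0.58), Abcb11 (-0.54 to 0.57), Abcc2 (-0.09 to 0.55) and Nr1h4 (-0.52 to 0.30), lung Slc51b (-0.38 to 0.46) and Cyp8b1 (-1.58 to 0.13), liver minus kidney Abcb11 (-0.56 to 0.54), Abcc3 (-0.63 to 0.49) and Nr1h4 (-0.18 to 0.75), and liver minus lung Slc10a1 (-0.67 to 2.41), Abcc2 (-0.05 to 3.07) and Cyp7a1 (-0.49 to 2.57).

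Over all genes, liver calls went from 3942 to 259 with the TA 2 and TA 3 term and 1521 to 4582 without 1 library. Upper quartile scaling moved the liver median from 0.02 to 0.21 and the split from 1897 higher and 2045 lower to 2610 and 1367. Kidney calls went from 2 to 29 with DESeq2, and lung calls from 1 to 183 with DESeq2, 94 in the 18-library fit and 0 with limma-voom or the block. Liver minus kidney (1634) gave 3067 with DESeq2, 747 with limma-voom, 818 with the block and 396 to 2717 without 1 library, and liver minus lung (2184) gave 3531, 1651, 1135 and 693 to 3084. Slc51b in liver and Slc10a2 in lung rest on few reads.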

Other observations

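The genes whose log2(CPM + 1) followed each of the 10 most closely over all 18 libraries are given as a description, since the libraries share tissues. Slc10a1 was nearest to Mug2 (Pearson r = 0.997) and Slc27a5 (0.996), Abcb11 to Cyp2c50 and F12 (both 0.998), Abcc2 to Dnajc22 and Slc2a2 (both 0.996), and Nr1h4 to Hpn and Acot12 (both 0.993). Slc51b was nearest to Slc22a19 (0.997) and Slc22a13 (0.995), and Slc10a2 to Bdh1 and Acnat1 (both 0.982). Nr0b2 was nearest to Immp2l (0.985) and Slco1a4 (0.984), Cyp8b1 to Fdps (0.978) and Vkorc1l1 (0.976), and Cyp7a1 to Slc17a8 (0.976) and Epha1 (0.970). Abcc3 had the loosest nearest genes, Dsg2 (0.905) and Zfp617 (0.902).

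Lung CCNE-TA 3 held kidney tubule transcripts, with Kap at 13.7 CPM and Slc34a1 at 4.21 CPM, against at most 0.0921 and 0.0691 CPM in the other 5 lungs. Slc51a stood at 18 reads there and at 0 to 4 reads in the others.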
